A study of Mus musculus with 15 samples.

Results

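The 32 genes described here encode enzymes and regulators of sterol synthesis (21 genes) and of fatty acid synthesis (11 genes), chosen by name from textbook knowledge of the pathways. A gene was represented by the probe set that carried its symbol alone and had the highest mean over the 15 arrays, which measured 31 of the 32 genes (20 sterol and 11 fatty acid genes) among 18193 genes in all, and Acat2 was not analysed here. The arrays were Affymetrix mouse whole-genome expression chips hybridised with RNA from whole PDA30364 tumors, a mouse pancreatic ductal adenocarcinoma line grown under the flank skin of C57BL/6-Ly5.1 mice aged 6 to 12 weeks. Each mouse carried the same line, injected as 500000 cells in PBS and Matrigel, so the groups differ in treatment and not in genotype. Control mice (n = 4) received vehicle (MCT) and control IgG, CD40 Ab mice (n = 4) received vehicle and the CD40 mIgG1 agonist antibody, MEKi mice (n = 3) received the MEK inhibitor GDC-0623 at 30 mg/kg daily and control IgG, and combination mice (MEKi/CD40 Ab, n = 4) received GDC-0623 and the agonist antibody. The inhibitor was given for about 2 weeks and the antibodies were injected on days 3, 5 and 7 of that treatment, with a last dose 1 day ahead of tumor collection, 26 days after inoculation.

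Cholesterol is built from acetyl-CoA by way of mevalonate, farnesyl diphosphate, squalene and lanosterol, and fatty acids are built from acetyl-CoA and malonyl-CoA and then elongated and desaturated. The transcription factor SREBP-2 (gene Srebf2) mainly drives the sterol genes and SREBP-1c (from Srebf1) mainly the fatty acid genes, and both precursors are released from the endoplasmic reticulum when membrane sterols are low, a step held back by Insig1. Dividing tumor cells use both pathways for membranes, while adipocytes and sebaceous glands are rich in fatty acid synthesis enzymes.

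Of 8 genes that mark ductal epithelium, Krt19 (log2 level 13.05 to 13.59 over the 15 arrays), Krt8, Krt18, Krt7 and Cdh1 were at 11.12 or more in every array and Muc1 at 9.51 to 11.32. Epcam ranged from 6.67 to 9.94 in control and CD40 Ab tumors and from 9.76 to 11.42 in MEKi and combination tumors, and Cldn4 (4.56 to 5.94) lay around the median of all probe sets. The pieces also held other tissue in unequal amounts. The mean log2 level of 12 skeletal muscle genes was 4.62 to 7.06 in control, 4.55 to 6.52 in CD40 Ab, 7.62 to 10.63 in MEKi and 8.11 to 9.69 in combination tumors. That of 12 skin keratinocyte and hair follicle genes was 6.66 to 7.42 in MEKi, 4.62 to 5.36 in combination and 4.60 to 6.28 in control tumors. The sample titles carry an animal number, and these numbers were split here into a lower and an upper series. The labels name no series and do not say what the numbers mean, so a series need not be a batch. All 4 combination mice fell in the lower and all 3 MEKi mice in the upper series. These groups and series thus cannot be told apart in the comparison of one with the other. Of the 4 controls 3 were in the lower series, so MEKi against control is also nearly a comparison of series. In mice without MEKi (control and CD40 Ab), the mean level of the sterol genes was 9.42 ± 0.13 (SD, n = 5) in the lower and 9.11 ± 0.22 (SD, n = 3) in the upper series.

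To show what stands in front of these genes, the 150 bases upstream of the start of 5 sterol genes and 2 fatty acid genes are printed from RefSeq (GRCm38.p6), on the strand of the gene. The 5 sterol genes are the first enzyme of the pathway among those measured (Hmgcs1), Mvk, Idi1, Msmo1 and the regulator Srebf2. The isomerase Idi1 and the methyl oxidase Msmo1 had the lowest combination to control ratios among the enzymes. Fasn and Fads2 are 2 of the 8 fatty acid genes with an entry and need not be typical of them. The GC box of Fads2 begins at -186 from the start, outside the printed bases. Capitals mark CCAAT (the box bound by NF-Y), GGGCGG (the GC box bound by Sp1), CACGTG (an E-box) and TCACNCCAC (a sterol regulatory element type), each on either strand, so that ATTGG and CCGCCC are the same boxes read on the other strand.
Hmgcs1, chr13:119690201-119690350, plus strand: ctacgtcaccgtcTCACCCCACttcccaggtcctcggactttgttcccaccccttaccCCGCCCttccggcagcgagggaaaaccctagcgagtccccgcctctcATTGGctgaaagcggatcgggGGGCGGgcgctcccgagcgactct
Mvk, chr5:114444119-114444268, plus strand: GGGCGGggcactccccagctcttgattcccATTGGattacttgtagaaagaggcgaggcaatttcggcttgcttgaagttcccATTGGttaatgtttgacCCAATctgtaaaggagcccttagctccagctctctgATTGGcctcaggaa
Idi1, chr13:8885456-8885605, plus strand: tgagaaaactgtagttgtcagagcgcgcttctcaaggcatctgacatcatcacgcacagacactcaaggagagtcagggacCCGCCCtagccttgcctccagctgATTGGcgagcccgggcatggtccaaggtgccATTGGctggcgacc
Msmo1, chr8:64733579-64733728, minus strand: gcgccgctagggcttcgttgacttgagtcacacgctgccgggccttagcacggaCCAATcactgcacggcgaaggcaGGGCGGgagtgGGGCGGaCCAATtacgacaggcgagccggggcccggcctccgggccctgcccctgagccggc
Srebf2, chr15:82147119-82147268, plus strand: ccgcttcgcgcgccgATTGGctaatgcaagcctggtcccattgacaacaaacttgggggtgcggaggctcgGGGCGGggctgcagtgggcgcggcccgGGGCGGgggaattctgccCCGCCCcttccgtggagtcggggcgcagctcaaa
Fasn, chr11:120824548-120824697, minus strand: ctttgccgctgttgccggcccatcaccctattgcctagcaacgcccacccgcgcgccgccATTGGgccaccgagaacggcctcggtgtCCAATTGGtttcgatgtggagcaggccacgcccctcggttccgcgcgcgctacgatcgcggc
Fads2, chr19:10101504-10101653, minus strand: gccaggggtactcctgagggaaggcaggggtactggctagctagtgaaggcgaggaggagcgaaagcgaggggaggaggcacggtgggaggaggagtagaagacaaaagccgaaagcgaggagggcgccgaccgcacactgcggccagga

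In windows from 250 bases before to 50 after the start, 25 of the 32 listed genes had an entry. CCAAT stood in the window of 16 of 17 sterol genes (94.1%) and 5 of 8 fatty acid genes (62.5%), against 41.1% of 27025 genes. The GC box gave the same counts for both groups, 94.1% and 62.5%, against 38.2% of all genes. CACGTG was found in 4 of 17 sterol genes and 0 of 8 fatty acid genes, against 8.09% of all genes, and TCACNCCAC in 1 sterol gene, Hmgcs1, against 1.44%. These are matches of letters and not tests of binding. Fdps, Fdft1, Sqle, Stard4, Scd1, Scd2 and Fads1 had no entry.

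Over the 20 sterol genes the mean log2 level in the single tumors, in replicate order as everywhere below, was 9.47, 9.22, 9.56 and 9.25 in control, 9.39, 9.44, 9.22 and 8.86 in CD40 Ab, 8.14, 9.30 and 8.76 in MEKi, and 8.97, 8.95, 9.15 and 8.77 in combination tumors. All 4 combination tumors lay below all 4 controls, whereas MEKi replicate 2 lay within the control range and CD40 Ab replicate 4 lay below every control. Over the 11 fatty acid genes the mean level was 10.08, 9.94, 10.08 and 9.88 in control, 10.11, 10.05, 9.90 and 9.71 in CD40 Ab, 9.43, 9.90 and 9.69 in MEKi, and 9.91, 9.82, 9.98 and 10.08 in combination tumors. The fatty acid means of control and combination tumors overlapped. The sterol mean minus the fatty acid mean was -0.62 ± 0.09 (SD, n = 4) in control, -0.71 ± 0.10 (SD, n = 4) in CD40 Ab, -0.94 ± 0.34 (SD, n = 3) in MEKi and -0.99 ± 0.22 (SD, n = 4) in combination tumors, and combination tumors (-1.31 to -0.84) did not overlap controls (-0.72 to -0.51). These list means are a description and were not tested. In whole tumors, fewer cells of a type and less RNA per cell cannot be told apart.

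**Figure D1:**
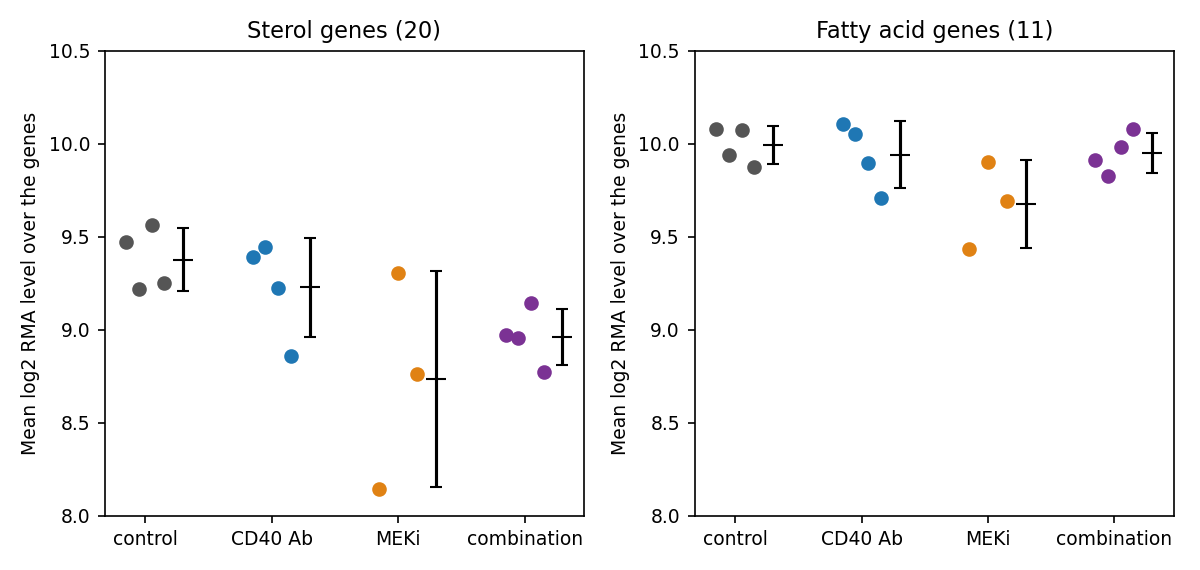
Mean log2 RMA level (vertical axis, arbitrary log2 units) of the 20 sterol genes (left) and the 11 fatty acid genes (right) in each tumor, by treatment group (horizontal axis); points are single arrays, and the bar beside them is the group mean with its SD. The 4 combination tumors sit at 8.77 to 9.15 on the left, below the 4 controls at 9.22 to 9.56, and overlap the controls on the right.

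The direction of the sterol genes against controls was shared in some tumors and mixed in others. Relative to the control mean, all 20 were lower in MEKi replicates 1 and 3, in combination replicates 1, 2 and 4 and in CD40 Ab replicate 4. Control replicate 2 also had all 20 below the control mean, by a median of 0.16 on the log2 scale, against 1.30 in MEKi replicate 1. MEKi replicate 1 had the lowest level of the 15 arrays for 19 of 20 sterol genes and 7 of 11 fatty acid genes, and it also had the highest skeletal muscle level (10.63) and the lowest level of 11 mitosis genes (6.98). MEKi replicate 2 was below the control mean for 14 of 20 sterol genes and CD40 Ab replicate 1 for 10 of 20. Control replicate 3 had the highest level for 12 of 20 sterol genes.

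**Figure D2:**
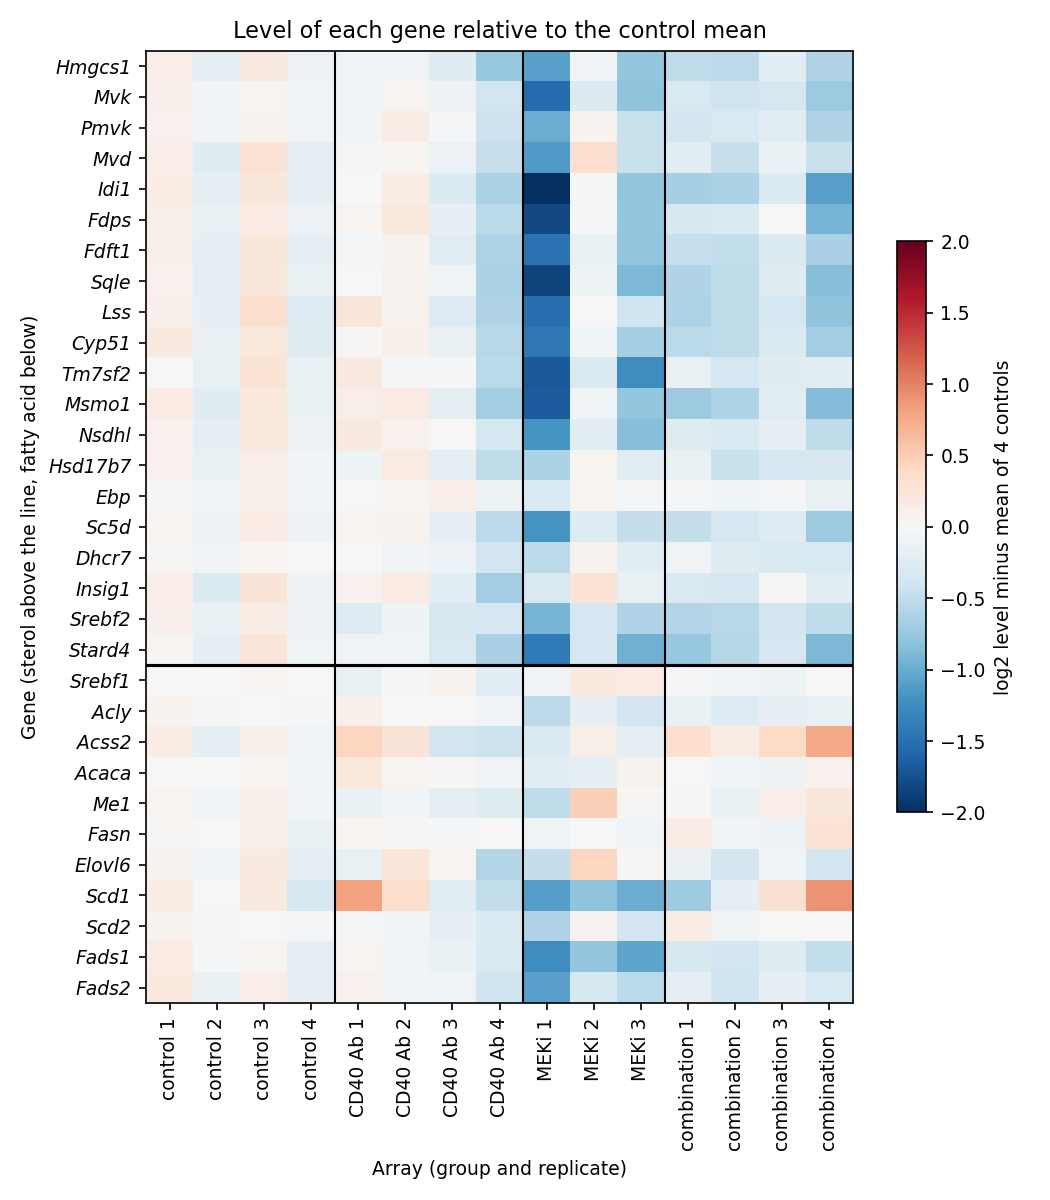
Log2 level of each gene (rows, sterol genes above the heavy line and fatty acid genes below) in each of the 15 arrays (columns, by group and replicate) minus the mean of the 4 controls; blue is below and red above the control mean, on a scale from -2 to 2. The sterol rows are blue throughout MEKi replicates 1 and 3 and combination replicates 1, 2 and 4, and 18 of 20 are blue in combination replicate 3, while Scd1, Acss2 and Me1 hold both colours among the treated tumors.

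MEKi/CD40 Ab treatment against control asked what the 2 agents did together. Of the 20 sterol genes, 13 fell and none rose, and of the 11 fatty acid genes 1 fell (Fads1) and none rose (limma, Benjamini-Hochberg adjusted p under 0.05 over 45037 probe sets). Over all 18193 genes, 8.72% fell and 10.3% rose in this comparison. The median log2 fold change (log2 FC) was -0.44 for the sterol genes, -0.02 for the fatty acid genes and -0.04 for all genes. The 13 sterol genes fell by between 0.31 and 0.67 on the log2 scale, with SE from 0.084 to 0.165 and adjusted p from 0.0041 to 0.037. Every combination tumor lay below every control for 12 of the 20 sterol genes, 11 of them among the 13, and for 2 of the 11 fatty acid genes, against 14.4% of all genes.

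The regulator Srebf2 was at a log2 level of 9.47, 9.23, 9.51 and 9.25 in control and 8.78, 8.81, 8.99 and 8.85 in combination tumors. The groups did not overlap, and the log2 FC was -0.51 (SE 0.084, limma adjusted p = 0.0041), so that the linear level fell by 29.7%. Stard4, which carries cholesterol between membranes, was at 8.81, 8.56, 9.00 and 8.68 in control and 8.01, 8.19, 8.43 and 7.87 in combination tumors, without overlap, and fell by 0.64 (SE 0.131, limma adjusted p = 0.012). Insig1, which retains the SREBP precursors, was at 8.53, 8.11, 8.66 and 8.30 against 8.10, 8.06, 8.42 and 8.19. The Insig1 groups overlapped and the difference of -0.21 did not pass (limma adjusted p = 0.32).

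Among the 6 genes of the mevalonate steps, 4 fell. Idi1, which isomerises isopentenyl diphosphate, had the largest change of all sterol genes, from 10.69, 10.35, 10.77 and 10.35 in control to 9.87, 9.90, 10.25 and 9.45 in combination tumors. Every combination tumor was below every control, and Idi1 fell by 0.67 (SE 0.165, limma adjusted p = 0.025). Hmgcs1, the HMG-CoA synthase, had 11.32, 10.99, 11.37 and 11.06 in control and 10.68, 10.66, 10.96 and 10.59 in combination tumors, and fell by 0.46 (limma adjusted p = 0.022). Its lowest control exceeded its highest combination tumor by a narrow margin. The kinases Mvk and Pmvk fell by 0.44 and 0.38. The decarboxylase Mvd (log2 FC -0.32, limma adjusted p = 0.14) and the farnesyl diphosphate synthase Fdps (-0.38, limma adjusted p = 0.19) did not pass, and their groups overlapped.

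Of the 11 genes from squalene to cholesterol, 7 fell. Msmo1, a sterol C4 methyl oxidase, was at 10.82, 10.41, 10.86 and 10.51 in control and 9.93, 10.03, 10.42 and 9.79 in combination tumors. Combination replicate 3 was just above the lowest control, and Msmo1 fell by 0.61 (SE 0.148, limma adjusted p = 0.024). Sqle, the squalene epoxidase, was at 10.43, 10.15, 10.57 and 10.20 in control and 9.74, 9.83, 10.10 and 9.48 in combination tumors, without overlap, and fell by 0.55 (SE 0.137, limma adjusted p = 0.027). The squalene synthase Fdft1 fell by 0.47, the lanosterol synthase Lss by 0.57, the lanosterol demethylase Cyp51 by 0.50, the desaturase Sc5d by 0.45 and the reductase Hsd17b7 by 0.31. The sterol C14 reductase Tm7sf2 (-0.24), the C4 decarboxylase Nsdhl (-0.31), the isomerase Ebp (-0.07) and the last reductase Dhcr7 (-0.23) did not pass, with limma adjusted p from 0.052 to 0.52.

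Other probe sets of the 14 genes that fell numbered 23, of which 10 passed as well. These 10 belonged to Hmgcs1, Idi1, Fdft1, Lss and Stard4. No other probe set of Srebf2, Mvk, Cyp51, Msmo1, Hsd17b7, Sc5d or Fads1 passed. Other probe sets of opposite sign were 1 for Fdft1 (log2 FC 0.04) and 1 for Fads1 (0.07), both at mean log2 levels near the array median. The sterol count rested on which arrays were in the fit. The shares of all genes that passed in these other fits are not given here. The counts below thus do not tell a change in the sterol genes from a change in calls over all genes. It was 2 without control replicate 1 or without control replicate 3, 7 without combination replicate 1 and 6 without combination replicate 2 or without combination replicate 4. It was 12 in the lower animal series alone (4 combination against 3 control tumors), 2 with the series as a covariate in all 15 arrays, 1 in the fit of all 15 arrays, 1 with the adipocyte level as a covariate and 0 with the skin and muscle levels as covariates. Srebf2 kept an adjusted p under 0.05 in the all-array fits with no covariate, with the series and with the adipocyte level. With the skin and muscle levels it had a log2 FC of -0.33 (limma adjusted p = 0.38). Skeletal muscle genes rose in combination tumors (11 of 12), as did 8 of 10 macrophage genes, 6 of 8 T cell genes and 4 of 9 fibroblast genes, and 6 of 11 mitosis genes fell. The fit with skin and muscle levels held no macrophage, T cell, fibroblast or mitosis level. The part of those in the sterol result was not tested. Muscle levels of combination (8.11 to 9.69) and control tumors (4.62 to 7.06) did not overlap, so that fit cannot tell muscle from treatment.

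**Figure D3:**
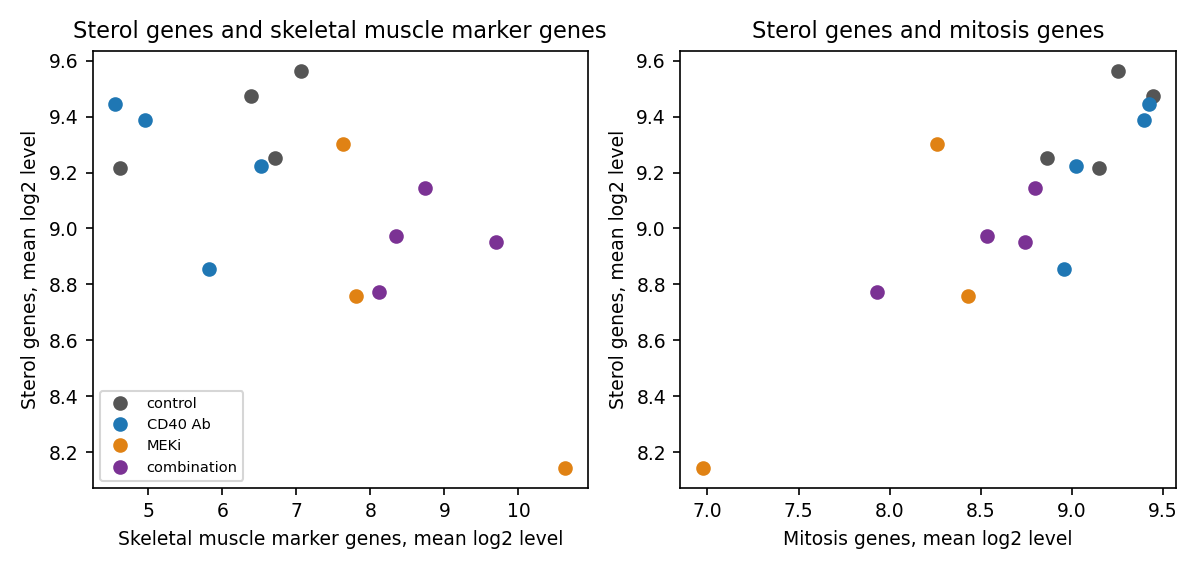
Mean log2 level of the 20 sterol genes (vertical axis) against the mean log2 level of 12 skeletal muscle genes (left) and of 11 mitosis genes (right), one point per tumor, coloured by group. MEKi replicate 1 lies at the edge of both panels (muscle 10.63, mitosis 6.98, sterol 8.14), and the 4 combination tumors (muscle 8.11 to 9.69) lie to the right of every control (4.62 to 7.06) in the left panel.

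The fatty acid genes of the combination tumors held no common direction, with 6 of 11 below and 5 above 0. Srebf1 was at 10.26, 10.26, 10.31 and 10.26 in control and 10.23, 10.20, 10.17 and 10.28 in combination tumors, and the groups overlapped (log2 FC -0.05, SE 0.053, limma adjusted p = 0.57). Fasn, which builds palmitate, was at 10.13, 10.12, 10.20 and 9.97 against 10.26, 10.05, 10.01 and 10.38 (log2 FC 0.07, limma adjusted p = 0.67). Acaca, the acetyl-CoA carboxylase, had a log2 FC of -0.02 (SE 0.062) and Scd2 of 0.02 (SE 0.065), and neither passed.

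Acss2, which makes acetyl-CoA from acetate, was at 7.22, 6.89, 7.16 and 6.99 in control and 7.40, 7.22, 7.47 and 7.82 in combination tumors. Combination replicate 2 equalled the highest control, and the log2 FC of 0.41 (SE 0.127) did not pass (limma adjusted p = 0.059). Acly, which makes acetyl-CoA from citrate, was at 11.16, 11.06, 11.09 and 11.05 in control and 10.95, 10.83, 10.93 and 10.94 in combination tumors, without overlap, with a log2 FC of -0.18 (limma adjusted p = 0.070). Me1, the NADPH-producing malic enzyme (0.06), the elongase Elovl6 (-0.24) and the desaturase Scd1 (0.08) did not pass either, with limma adjusted p of 0.69, 0.16 and 0.88.

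Fads1, the delta-5 desaturase of polyunsaturated fatty acids, was at 10.26, 10.06, 10.16 and 9.92 in control and 9.78, 9.71, 9.85 and 9.61 in combination tumors. The groups did not overlap, and Fads1 fell by 0.36 (SE 0.086, limma adjusted p = 0.022), a call lost without control replicate 1, without control replicate 3 or without combination replicate 4. Its partner Fads2, the delta-6 desaturase, was at 9.32, 9.00, 9.26 and 8.95 in control and 8.94, 8.73, 8.97 and 8.82 in combination tumors, which overlapped (log2 FC -0.27, limma adjusted p = 0.11).

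**Figure D4:**
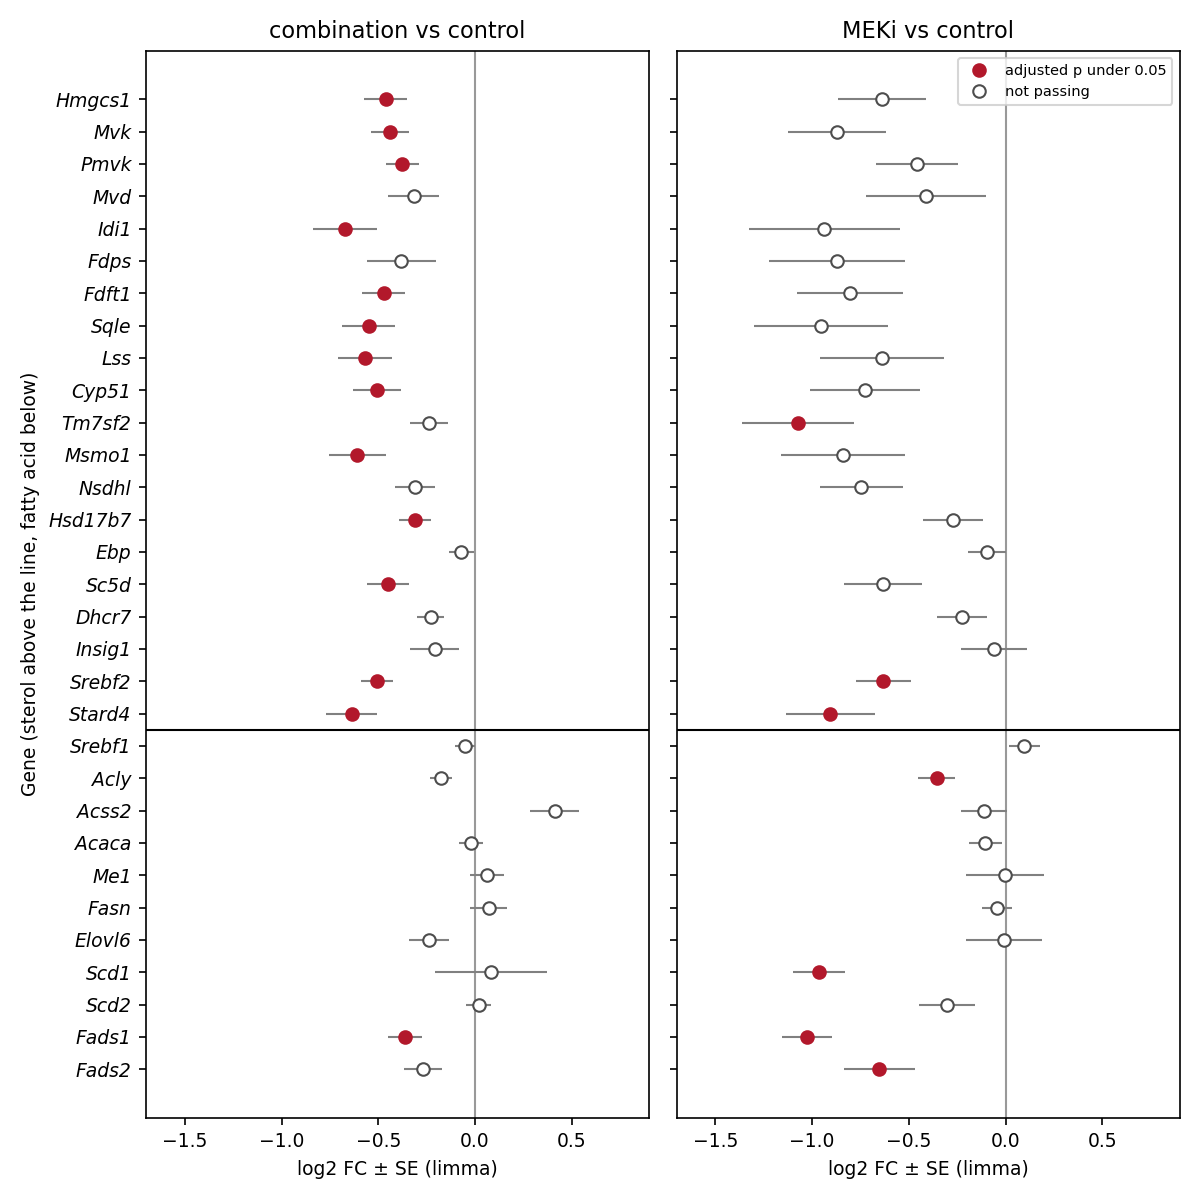
Log2 fold change with its SE (horizontal axis) of each gene (rows) in combination against control (left) and MEKi against control (right); filled red points passed an adjusted p of 0.05 and open points did not, with sterol genes above the line and fatty acid genes below. On the left 13 sterol genes and Fads1 are filled; on the right 17 of the 20 sterol points lie further from 0 than on the left, with wider SE, and 3 are filled, beside Acly, Scd1, Fads1 and Fads2.

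MEKi alone against control shared the control tumors with the comparison above. Here 3 of 20 sterol genes (Tm7sf2, Srebf2 and Stard4) and 4 of 11 fatty acid genes (Acly, Scd1, Fads1 and Fads2) fell and none rose, against 10.4% of all genes that fell and 10.7% that rose. The share of sterol genes called, 3 of 20, was thus close to that of all genes. The median log2 FC was nevertheless -0.68 for the sterol genes, -0.11 for the fatty acid genes and -0.04 for all genes, and all 20 sterol values were below 0. An unadjusted p under 0.05 was reached by 13 of 20 sterol genes, against 36.9% of all genes in either direction.

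Tm7sf2 was at 9.06, 8.91, 9.33 and 8.92 in control and 7.37, 8.76 and 7.81 in MEKi tumors. The groups did not overlap, although MEKi replicate 2 came near the controls, and Tm7sf2 fell by 1.08 (SE 0.290, limma adjusted p = 0.040). Srebf2 was at 8.43, 9.01 and 8.76 in MEKi tumors, below every control, and fell by 0.63 (SE 0.143, limma adjusted p = 0.021). Stard4 was at 7.35, 8.42 and 7.80, also below every control, and fell by 0.91 (SE 0.229, limma adjusted p = 0.032). Without MEKi replicate 1, the array with the most muscle RNA, the log2 FC of Srebf2 was -0.48 (limma adjusted p = 0.027) and that of Stard4 -0.65 (limma adjusted p = 0.044), while Tm7sf2 had -0.77 (limma adjusted p = 0.067).

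Other sterol genes differed by as much but with a wide spread. Sqle was at 8.48, 10.23 and 9.44 in MEKi tumors (log2 FC -0.95, SE 0.349, limma adjusted p = 0.10) and Idi1 at 8.55, 10.51 and 9.75 (log2 FC -0.94, SE 0.392, limma adjusted p = 0.15). In both genes MEKi replicate 2 was among the controls and MEKi replicates 1 and 3 were below them. Fdps, Mvk and Msmo1 had log2 FC of -0.87, -0.87 and -0.84, and Fdft1, Nsdhl, Cyp51, Lss, Hmgcs1 and Sc5d lay between -0.80 and -0.63. Pmvk (-0.46), Mvd (-0.41), Hsd17b7 (-0.27), Dhcr7 (-0.23), Ebp (-0.10) and Insig1 (-0.06) had the smallest values. Insig1 was at 8.10, 8.67 and 8.25 in MEKi tumors, across the control range.

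Of the 4 desaturase genes, 3 fell under MEKi alone. Fads1 was at 8.85, 9.32 and 9.05 in MEKi tumors, below each control and each combination tumor, and fell by 1.03 (SE 0.127, limma adjusted p = 0.0018), so that its linear level decreased by 50.9%. Scd1, the delta-9 desaturase that makes oleate, was at 10.79, 10.64, 10.82 and 10.33 in control and 9.55, 9.84 and 9.65 in MEKi tumors. The groups did not overlap and the 3 MEKi tumors lay close together, and Scd1 fell by 0.96 (SE 0.133, limma adjusted p = 0.0028). Fads2 was at 8.04, 8.81 and 8.59 and fell by 0.65 (SE 0.183, limma adjusted p = 0.046), with no overlap with the controls. Scd2 was at 11.98, 12.65 and 12.22 against 12.66, 12.56, 12.58 and 12.54, overlapped and did not pass (limma adjusted p = 0.20).

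Acly was at 10.57, 10.93 and 10.70 in MEKi tumors, below every control, and fell by 0.36 (SE 0.095, limma adjusted p = 0.038). Its 5 other probe sets had the same sign but did not pass. Other probe sets of the 7 genes that fell under MEKi numbered 12, of which 3 passed and 0 had the opposite sign. Those of Srebf2 and Fads1 did not pass. Srebf1, at 10.22, 10.46 and 10.43, was not lower (log2 FC 0.10, SE 0.079, limma adjusted p = 0.45), and Fasn (-0.04, SE 0.077), Acaca (-0.11), Acss2 (-0.11), Elovl6 (-0.01) and Me1 did not pass. Me1 ranged from 11.01 in MEKi replicate 1 to 11.99 in MEKi replicate 2, which spans every other tumor.

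The MEKi counts also rested on single arrays, and here too the shares of all genes in the other fits are not given. The sterol count was 15 without MEKi replicate 2, 3 without MEKi replicate 1, 0 without MEKi replicate 3, without control replicate 1 or without control replicate 3, and 1 without control replicate 2 or without control replicate 4. The fatty acid count was 2 without MEKi replicate 1, MEKi replicate 3 or any 1 control. With the skin and muscle levels as covariates both counts were 0. The log2 FC was then -0.50 for Srebf2, -0.87 for Fads1 and -0.04 for Scd1, each with an adjusted p above the threshold. Both covariates were higher in every MEKi tumor than in every control, so this fit cannot tell other tissue from treatment. With the animal series as a covariate Srebf2 (-0.52) and Fads1 (-0.85) kept an adjusted p under 0.05, whereas Scd1 had -0.43 (limma adjusted p = 0.48). Skin genes rose in MEKi tumors (7 of 12), as did 8 of 9 fibroblast genes and 2 of 12 muscle genes, while 8 of 11 mitosis genes fell. All 12 muscle genes had a log2 FC above 0, with a median of 2.455. An unadjusted p under 0.05 (limma) was reached by 11 of them, against 36.9% of all genes in either direction. The 9 adipocyte genes had a mean log2 level of 4.75 to 5.05 in MEKi and 5.01 to 5.40 in control tumors. All 9 had a log2 FC below 0, and 0 of 9 passed. Of 7 sebaceous gland genes, 2 rose and 0 fell in MEKi tumors, against 10.7% and 10.4% of all genes. In combination against MEKi 2 of the 7 fell and 0 rose, against 2.65% and 1.38%. The part of sebaceous gland cells was not tested.

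CD40 Ab alone against control gave no call among the 31 genes (limma), against 1.01% of all genes that rose and 0.0495% that fell. At an unadjusted p under 0.05 there was 1 sterol gene (Srebf2) and 1 fatty acid gene (Me1), against 11.5% of all genes in either direction. The medians were -0.15 for the sterol and -0.085 for the fatty acid genes. The sterol genes with the largest differences were Hmgcs1, Stard4 and Srebf2. Hmgcs1 was at 11.12, 11.13, 10.95 and 10.43 in CD40 Ab tumors (log2 FC -0.28, SE 0.157), Stard4 at 8.69, 8.69, 8.45 and 8.11 (-0.28, SE 0.140) and Srebf2 at 9.10, 9.26, 9.04 and 9.02 (-0.26, SE 0.088). All 3 overlapped the controls, and CD40 Ab replicate 4 was lowest in each. Insig1 was at 8.49, 8.57, 8.18 and 7.70 and Srebf1 at 10.13, 10.23, 10.35 and 10.04, both overlapping the controls.

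Among the fatty acid genes Me1 was at 11.38, 11.47, 11.32 and 11.27 in CD40 Ab and 11.57, 11.43, 11.62 and 11.46 in control tumors (log2 FC -0.16, SE 0.070, limma adjusted p = 0.49). Scd2 had 12.55, 12.53, 12.42 and 12.29 (-0.14, limma adjusted p = 0.58) and Fads2 9.22, 9.06, 9.05 and 8.73 (-0.12, limma adjusted p = 0.82). These groups overlapped the controls as well.

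Combination against MEKi, which asked what the antibody added, gave 0 of 20 sterol and 1 of 11 fatty acid genes (limma). At an unadjusted p under 0.05 there were 1 sterol and 3 fatty acid genes, against 21.3% of all genes in either direction. Fads1 was higher in combination than in MEKi tumors by 0.66 (SE 0.119, limma adjusted p = 0.030), against 1.38% of all genes that rose and 2.65% that fell. The other Fads1 probe set did not pass. In the probe set reported, the 4 combination tumors (9.61 to 9.85) lay above the 3 MEKi tumors (8.85 to 9.32). This call was lost when any 1 combination tumor or MEKi replicate 3 was left out and with the animal series as a covariate (0.43, limma adjusted p = 0.15). Scd1 was at 9.94, 10.47, 10.95 and 11.55 in combination tumors, above the 3 MEKi tumors, but with a log2 FC of 1.05 (SE 0.332) did not pass (limma adjusted p = 0.15). Acss2 (0.52, limma adjusted p = 0.13) also did not overlap between these groups. Tm7sf2, at 8.91, 8.70, 8.82 and 8.83 in combination tumors, was higher by 0.84 (SE 0.281) than in MEKi and did not pass (limma adjusted p = 0.18).

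Scd1 spread widely within the CD40 Ab and combination groups, with an SD of 0.58 and 0.69 (n = 4 each). It was highest in combination replicate 4 (11.55) and CD40 Ab replicate 1 (11.45), and these 2 tumors also had the highest adipocyte level of the 15, 6.95 and 6.86, against 5.01 to 5.40 in controls. Acss2 was highest in combination replicate 4 (7.82) and next in CD40 Ab replicate 1 (7.50). With the adipocyte level as a covariate in all 15 arrays, Scd1 had a log2 FC of 0.27 (limma adjusted p = 0.61) for combination against MEKi and -0.69 (limma adjusted p = 0.014) for MEKi against control. The part of adipocytes in the Scd1 and Acss2 values was not tested.

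**Figure D5:**
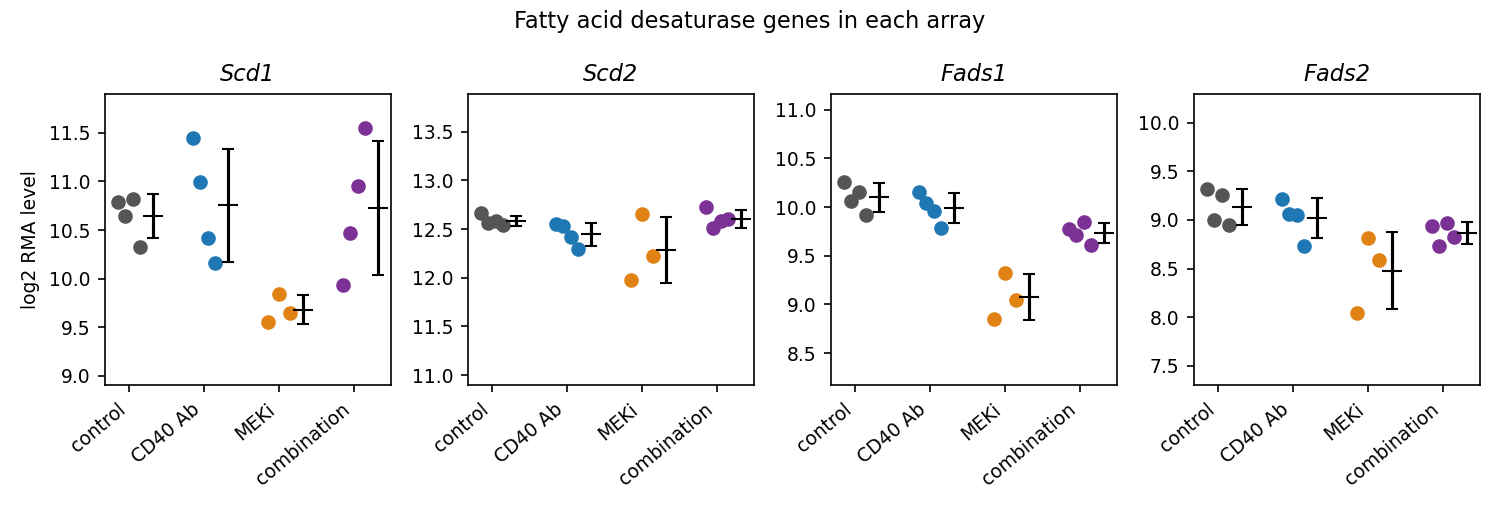
Log2 RMA level (vertical axis, the same span of 3 log2 units in each panel) of the desaturase genes Scd1, Scd2, Fads1 and Fads2 in each tumor, by group; points are single arrays and the bar beside them is the group mean with its SD. The 3 MEKi tumors are the lowest for Fads1 (8.85 to 9.32) and Scd1 (9.55 to 9.84), and Scd1 ranges from 9.94 to 11.55 among combination tumors.

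Combination against CD40 Ab gave 0 of 31 calls (limma), against 3.69% of all genes that rose and 2.52% that fell, although all 20 sterol genes were lower. At an unadjusted p under 0.05 there were 10 sterol and 3 fatty acid genes, against 25.4% of all genes in either direction. Srebf2 was lower by 0.25 (SE 0.077, limma adjusted p = 0.10) without overlap. Acly was lower by 0.19 (limma adjusted p = 0.12), also without overlap. Idi1 differed by -0.48 (SE 0.196, limma adjusted p = 0.19) and overlapped.

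Whether the effect of MEKi differed with and without the antibody was tested as an interaction over all 15 arrays. Fads1 passed, with a difference of 0.78 (SE 0.158, limma adjusted p = 0.017), against 2.00% of all genes above and 2.56% below 0. The other Fads1 probe set did not pass. As group means, Fads1 was 9.99 in CD40 Ab and 9.74 in combination tumors, and 10.1 in control and 9.07 in MEKi tumors. The difference was 0.49 (limma adjusted p = 0.31) with the animal series as a covariate and 0.83 (limma adjusted p = 0.14) with the skin and muscle levels. None of the 20 sterol genes passed (limma); 2 had an unadjusted p under 0.05, Tm7sf2 at 0.94 (SE 0.334, limma adjusted p = 0.15) and Srebf2 at 0.38 (SE 0.162, limma adjusted p = 0.23). Scd1 had the same estimate as Tm7sf2, 0.94, with a larger SE of 0.447 (limma adjusted p = 0.30), and Scd2 (0.46) and Fads2 (0.50) reached an unadjusted p under 0.05, against 20.4% of all genes in either direction.

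Genes around the pathway that were not among the 32 were counted by list, and the lists are small. Of 9 measured genes of cholesterol storage, trafficking and efflux, 3 rose and none fell in combination tumors and 2 rose in MEKi tumors, against 10.3% and 10.7% of all genes that rose. The sterol exporter Abcg1 rose by 0.93 (SE 0.089, limma adjusted p = 3.2e-04) and by 1.13 (SE 0.146, limma adjusted p = 0.0021), and Abca1, which loads cholesterol onto lipoproteins, rose by 0.74 (SE 0.082) and by 0.61 (SE 0.158), without overlap with the controls. The lysosomal acid lipase Lipa rose in combination tumors (0.49) and had -0.14 in MEKi tumors (limma adjusted p = 0.40). Abca1, Abcg1 and Lipa are also expressed by macrophages, whose 10 marker genes rose in 8 cases in combination and in 0 cases in MEKi tumors, and the part of macrophages in these values was not tested.

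Of 8 measured SREBP and LXR regulators, 2 rose in combination tumors, against 10.3% of all genes. In combination tumors 1 fell, and in MEKi tumors 1 rose. At 1 of 8, the fall in combination tumors and the rise in MEKi tumors are near the shares of all genes, 8.72% and 10.7%. Mylip, an LXR-induced ubiquitin ligase for lipoprotein receptors, rose by 0.77 (SE 0.117, limma adjusted p = 0.0027) in combination and by 1.13 (SE 0.198, limma adjusted p = 0.0074) in MEKi tumors. Rnf145 rose by 0.27 and the site-2 protease Mbtps2, which releases active SREBP, fell by 0.21 in combination tumors. None of the 6 genes of the isoprenoid branch passed in either comparison (limma), with 1 and 2 at an unadjusted p under 0.05, against 34.5% and 36.9% of all genes.

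Of 16 measured genes of fatty acid activation, elongation and glycerolipid synthesis, 4 rose and 1 fell in combination tumors and 5 rose and 1 fell in MEKi tumors, against 10.3% and 8.72% of all genes that rose and fell in combination and 10.7% and 10.4% in MEKi tumors. Dgat2, which completes triglycerides, rose by 1.13 (SE 0.206, limma adjusted p = 0.0064) and by 1.28 (SE 0.259, limma adjusted p = 0.014). The acyl-CoA synthetase Acsl3 fell by 0.91 (SE 0.098, limma adjusted p = 5.4e-04) and by 0.95 (SE 0.159, limma adjusted p = 0.0062). Acacb, the mitochondrial acetyl-CoA carboxylase, rose by 0.42 in combination tumors and Agpat2 rose by 0.67 in MEKi tumors. The Acacb probe set was dim, with a mean log2 level of 5.08 over the 15 arrays, below the median of 5.20 over all probe sets. Of 10 fatty acid oxidation genes, none passed in combination tumors (limma), against 10.3% of all genes that rose and 8.72% that fell. There was 1 at an unadjusted p under 0.05, against 34.5% of all genes in either direction. In MEKi tumors 1 of the 10, Decr1, fell, by 0.67 (SE 0.088, limma adjusted p = 0.0023), and 0 rose. That is near the 10.4% of all genes that fell. In CD40 Ab tumors none of the genes on these lists passed (limma), against 1.01% of all genes that rose and 0.0495% that fell. At an unadjusted p under 0.05 there were 6 (1 of 9, 1 of 8, 1 of 6, 2 of 16 and 1 of 10, in the order of the lists above). Over all genes that share was 11.5% in either direction.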

How the data were processed

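RNA of whole PDA30364 tumor pieces from 15 mice was hybridised to Affymetrix mouse whole-genome expression arrays. The deposited values are log2 expression levels per probe set that the authors normalized with Robust Multichip Averaging (RMA), and they were used as deposited. The array medians lay between 5.16 and 5.24. Of 45101 probe sets, 64 Affymetrix controls were left out and 45037 were tested with limma 3.58.1 in R 4.3.3 (lmFit and eBayes, two-sided), in fits of the 2 groups compared, and p-values were adjusted over these probe sets by the Benjamini-Hochberg method at 0.05, as the study's methods describe. The interaction, (combination minus MEKi) minus (CD40 Ab minus control), used all 15 arrays. Genes were named from GEO's platform annotation: 34945 probe sets had 1 symbol, 932 several and 9160 none. RMA compresses the ratios of dim probe sets, and the number of arrays limits the precision. Each array is 1 mouse. The fits of 2 groups were also run on simulated data with known changes. There both groups had the same SD per probe set, unlike MEKi and control tumors here (SD of the sterol mean 0.58 and 0.17). The interaction fit was not run on simulated data.

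The 32 genes, the other gene lists and the tests were chosen with earlier results of these data known. Values in every array are given for Srebf1, Srebf2, Insig1 and the 3 sterol and 3 fatty acid genes with the largest absolute log2 FC in each comparison with control, and for a few others chosen after their values were seen. From other lists the 3 passing genes with the largest change were named. Alternatives changed the samples in the fit, the variance model, array weights, median centring, filters on dim or cross-matching probe sets, the value per gene, a replicate block and covariates (animal series and the skin, muscle and adipocyte levels), and left out each array in turn. The animal series was inferred from the numbers in the sample titles, which the labels do not explain. Whether it stands for a batch was not tested. The restriction to the lower animal series was added after seeing the data.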

Additional observations from a re-analysis of the deposited data

Results flagged for a closer look

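Of 93 groups of 4 arrays examined for the 31 genes, 2 held an array far from the other 3; chance marks about 1 in 20 such groups. Srebf1 was at 10.31 in control replicate 3 and at 10.26 in each of the other controls. Acly was at 10.83 in combination replicate 2 and between 10.93 and 10.95 in the other combination tumors. The effect of MEKi on Fads1 differed between mice with and without CD40 Ab by 0.78 on the log2 scale (SE 0.158, limma interaction adjusted p = 0.017); the estimate was above 0 in every alternative run, and its adjusted p was 0.31 with the animal series and 0.14 with the skin and muscle levels as covariates.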

How the results depend on the processing

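For combination against control, the number of sterol genes that passed, 13 as reported, was 1 in the fit of all 15 arrays, in which the wider MEKi spread enters the shared error, 2 with the animal series, 0 with the skin and muscle levels and 1 with the adipocyte level as covariates, and 2 to 13 when 1 array was left out. The fatty acid count, 1 as reported, was 3 with an intensity trend and robust prior, 2 after median centring, 3 without dim probe sets, 0 with all probe sets of a gene averaged, 3 with the replicate block, 0 with the skin and muscle levels, 0 with the adipocyte level and 0 to 1 when 1 array was left out. With the skin and muscle levels as covariates 6 of the sterol genes that had passed changed sign. Their log2 FC became 0.046 for Mvk, 0.0062 for Pmvk, 0.038 for Idi1, 5.9e-04 for Fdft1, 0.039 for Sqle and 0.033 for Hsd17b7. Tm7sf2, which had not passed, also changed sign, from -0.24 to 0.23 (limma adjusted p = 0.81). Sign changes of other genes that had not passed are not given here. The cause was not tested.

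For MEKi against control, the sterol count, 3 as reported, was 10 in the fit of all 15 arrays, 5 without dim probe sets, 7 with the mean over probe sets, 0 with the replicate block, 1 with the animal series, 0 with the skin and muscle levels, 8 with the adipocyte level and 0 to 15 when 1 array was left out. The fatty acid count, 4 as reported, was 2 with the replicate block, 1 with the animal series, 0 with the skin and muscle levels and 2 to 5 when 1 array was left out. For combination against MEKi, the fatty acid count, 1 as reported, was 0 with the mean over probe sets, the replicate block, the animal series or the skin and muscle levels, and 0 to 1 when 1 array was left out, while the sterol count was 0 to 2. For combination against CD40 Ab, 1 fatty acid gene passed with an intensity trend and robust prior and 1 sterol gene within the lower animal series, against 0 as reported, and 0 to 0 of either list when 1 array was left out. For CD40 Ab against control both counts were 0 to 0. For the interaction, the fatty acid count, 1 as reported, was 0 with the animal series and 0 with the skin and muscle levels, and 1 to 2 when 1 array was left out, while the sterol count was 0 to 1.

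The sterol minus fatty acid difference ranged, when 1 array was left out, from -0.42 to -0.27 for combination against control, from -0.49 to -0.15 for MEKi against control, from -0.13 to -0.05 for CD40 Ab against control, from -0.22 to 0.12 for combination against MEKi and from -0.33 to -0.17 for combination against CD40 Ab. Of 449 values of the 23 gene and comparison pairs that passed, 287 still passed in the same direction, 156 did not pass and 6 changed sign. Of 21 same-numbered pairs of arrays, 9 correlated above 0.1 (r from -0.28 to 0.21). The median r was 0.03 in same-numbered pairs and -0.01 in the 63 pairs with different numbers. These values do not settle whether the numbers pair the animals. The replicate numbers were not treated as pairing them, and the replicate block is given only as the counts above.

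The 3 to 4 arrays a group, and the spread among the 3 MEKi arrays, limit what these comparisons can show. Animal series and treatment cannot be told apart between MEKi and combination, and other tissue in the pieces was not removed from the levels reported. Muscle levels of MEKi and combination tumors did not overlap those of controls, so the skin and muscle fits cannot tell tissue from treatment there. The shares of all genes that passed under the alternatives are not given here. A changed count of listed genes can therefore go with a change in calls over all genes.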
